A study of Mus musculus with 8 samples.

Results

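The 10 genes described here encode the proteins that make melanin and build the organelle that holds it, the melanosome. They were chosen by name for what their proteins do in pigment cells, with earlier results of these data known. They are 10 of the 31053 genes counted in each library. The enzymes are *Tyr*, *Tyrp1* and *Dct*, the melanosome membrane and matrix proteins are *Pmel*, *Mlana* and *Gpr143*, the transporters are *Slc45a2*, *Oca2* and *Slc24a5*, and *Rab38* encodes a small GTPase that carries enzymes to the melanosome. All 10 reached at least 1 CPM, a count scaled to library size, in at least 4 libraries and were tested.

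The study asked how loss of *Bbs8*, listed under its other symbol *Ttc8* in the gene annotation, alters the retinal pigment epithelium (RPE). Bbs8 is a subunit of the BBSome, a complex that moves membrane proteins in and out of the primary cilium. The 8 libraries hold RNA of RPE taken at P29, 4 of them from knockout (Bbs8-/-) mice and 4 from wild type (Bbs8+/+) littermate controls, and each mean ± SD is over the 4 libraries of a genotype. All mice were labelled C57/Bl6, untreated and of undetermined sex, and the study's methods treat each animal as a biological replicate. The deletion was not restricted to 1 cell type, and retina and choroid carried it as well. The libraries were made from 30 ng of RNA with QuantSeq, which reads transcripts from their 3′ ends only, so counts need not be divided by transcript length. Levels are given as normalised CPM, that is CPM after scaling the libraries by the trimmed mean of M values (TMM). The material is bulk RNA, in which fewer cells of a type and less RNA per cell cannot be told apart.

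The RPE is a single layer of cells behind the photoreceptors, and it makes most of its melanin before and around birth, whereas melanocytes of the skin go on making pigment. In the melanosome, tyrosinase oxidises tyrosine to dopaquinone, and Dct and Tyrp1 then act on the indole intermediates of eumelanin. Pigment is laid down on fibrils of Pmel, and ion transporters of the melanosome membrane set the pH and calcium that the enzymes work at. Many of these genes carry the letters CATGTG, a form of the E-box that the transcription factor Mitf binds, and in the RPE Otx2 is another known activator of several of them.

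Windows of the 250 bases before the annotated start were taken from RefSeq (GRCm38.p6) for the 5 of the 10 genes with an entry, *Tyr*, *Tyrp1*, *Dct*, *Oca2* and *Slc24a5*. *Pmel*, *Mlana*, *Gpr143*, *Slc45a2* and *Rab38* were not matched. The windows of *Tyr* and *Dct* are shown because these enzyme genes serve 1 pathway, while *Tyr* passed the test described below and *Dct* did not. Each runs 5′ to 3′ on the strand of its gene, and capitals mark the letters CATGTG, which read as CACATG where the match is on the other strand. In *Dct* they also mark a core that Otx2 is known to bind, GGATTA, which reads there as TAATCC because it is on the other strand.
*Tyr* (chr7:87493513-87493762, minus strand): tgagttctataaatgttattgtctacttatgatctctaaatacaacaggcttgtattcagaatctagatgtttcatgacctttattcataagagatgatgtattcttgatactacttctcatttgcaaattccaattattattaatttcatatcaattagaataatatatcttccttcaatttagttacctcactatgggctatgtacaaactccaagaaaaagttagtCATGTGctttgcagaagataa
*Dct* (chr14:118052247-118052496, minus strand): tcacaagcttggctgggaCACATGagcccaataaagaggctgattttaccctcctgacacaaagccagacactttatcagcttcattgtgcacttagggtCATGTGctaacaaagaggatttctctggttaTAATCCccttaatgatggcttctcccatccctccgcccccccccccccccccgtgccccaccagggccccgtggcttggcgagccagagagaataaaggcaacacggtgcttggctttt
The search covered both strands for CATGTG, for the related E-box CACGTG and for the Otx2 core GGATTA, and no matches overlapped in these windows. *Tyr* held CATGTG 1 time, with its first base 21 bases before the start. *Tyrp1* (chr4:80833963-80834212, plus strand) held it 1 time, 46 bases before the RefSeq start, but the GENCODE annotation has an earlier start, so that the last 90 bases of this window, the match included, lie inside the gene as GENCODE gives it. *Dct* held it 2 times, 232 and 150 bases before the start, and was the 1 gene of the 5 with GGATTA, 119 bases before the start. *Oca2* (chr7:56239509-56239758, plus strand) had 1 CATGTG 186 bases before the start and *Slc24a5* (chr2:125067877-125068126, plus strand) had 1 at 13 bases. CACGTG was in none of the 5 windows. Of the 32851 mouse windows of the same length, 12.3% held CATGTG, 6.02% held CACGTG and 6.25% held GGATTA. A match describes the letters and shows neither a bound site nor a cause.

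Between 2495094 and 3093428 counts fell on genes in a Bbs8+/+ library and between 2389835 and 2736289 in a Bbs8-/- library, and 3 counts, taken as the floor of a library, stood at 1.02 to 1.23 normalised CPM. Reads on no gene made up 17.0% to 18.4% of a Bbs8+/+ and 19.8% to 20.6% of a Bbs8-/- library, so this share differed with genotype without overlap, and its part in the values below was not tested. Counts of *Ttc8* were 105, 142, 144 and 116 in Bbs8+/+ but 15, 5, 14 and 15 in Bbs8-/- libraries, a log2 fold change of -3.34 that matches the labels (exact permutation test, two-sided, p = 0.0286, the smallest that 4 against 4 libraries can give). Where the deletion lies relative to the 3′ reads is not given in the sources used here. RPE markers gave a summed level of 38454 to 39628 CPM in Bbs8+/+ and 47043 to 50881 CPM in Bbs8-/- libraries, with *Ttr* making up 53.5% and 64.6% of it, and *Best1* was at 0 to 2.00 CPM. Summed markers of photoreceptors, lens and erythrocytes in Bbs8-/- libraries stood at 0.419, 0.136 and 0.402 times their Bbs8+/+ level, and those of glia at 1.45 times, none with overlap between the genotypes (adjusted exact p = 0.0514 for each). Of the 10 glia markers, 4 passed as higher in the test described below, beside 5.46% of all tested genes, and 2 had log2 fold changes below 0. Mean levels in Bbs8+/+ and Bbs8-/- libraries were 1199 and 1709 CPM for *Glul*, 7.06 and 423 CPM for *Serpina3n*, and 1056 and 1020 CPM for *Car14*. *Glul* and *Car14* thus made up most of the glia sum of 2401 CPM in Bbs8+/+ libraries. *C4b* was at 3.02 and 182 CPM, *Gfap* at 1.07 and 5.77 CPM and *Vim* at 114 and 100 CPM. Whether the sum follows the number of glia was not tested. Each library also held *Xist* and the 4 Y-linked genes measured, with at least 111 and 10 counts, so that all 8 libraries held transcripts of both sexes. A library may thus not be 1 animal, and each SD and p describes the spread between libraries, whatever number of animals they hold. *Xist* was at 60.1 CPM in Bbs8+/+ and 207 CPM in Bbs8-/- libraries, and the summed Y-linked genes at 146 and 117 CPM, the latter with overlap. The mix of sexes may thus differ with genotype, and its part in the values of any gene below was not tested.

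Of the 10 pigment genes, 3 were higher in Bbs8-/- RPE (*Tyr*, *Mlana* and *Slc24a5*), 1 was lower (*Pmel*) and 6 did not pass the test (edgeR's quasi-likelihood F test, Benjamini-Hochberg over 12889 tested genes, adjusted p under 0.05). Among all tested genes 12.3% passed, 5.46% higher and 6.80% lower. The same 4 pigment genes were the ones whose genotypes did not overlap, against 16.0% of all tested genes (7.42% higher and 8.62% lower in Bbs8-/-). The median log2 fold change of the 10 genes was 0.19, beside 0.02 over all tested genes, and 6 of the 10 values were above 0. At an unadjusted p under 0.05 the count was 7 of 10, beside 23.4% of all tested genes.

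**Figure D1:**
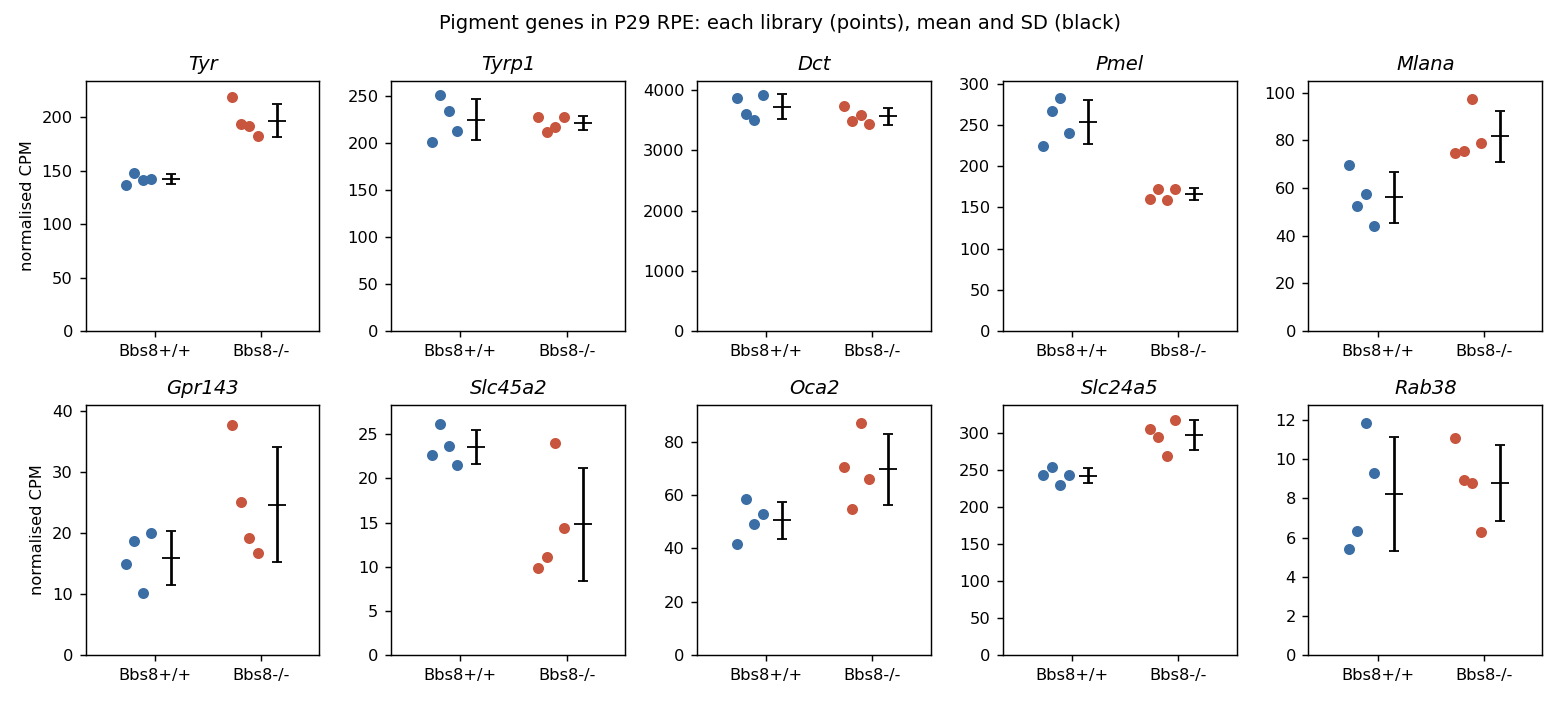
Normalised CPM (y axis, from 0 in each panel) of the 10 pigment genes in each Bbs8+/+ and Bbs8-/- library (points), with the mean and SD of 4 libraries in black. The points of the genotypes do not overlap for *Tyr*, *Mlana* and *Slc24a5*, which are higher in Bbs8-/-, and for *Pmel*, which is lower.

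Of the enzyme genes, *Tyr* passed the test and *Tyrp1* and *Dct* did not. *Tyr* (ENSMUSG00000004651, GRCm38 chromosome 7, 87424771 to 87493512, minus strand) encodes tyrosinase, the enzyme that starts melanin synthesis and limits its rate. Its level was 137, 148, 142 and 142 CPM in Bbs8+/+ and 219, 194, 192 and 183 CPM in Bbs8-/- libraries. Each Bbs8-/- library lay above each Bbs8+/+ library, and the Bbs8+/+ libraries lay close together. Mean levels were 142 ± 4.66 CPM and 197 ± 15.3 CPM (SD), a log2 fold change of 0.47 (SE 0.103, 95% interval 0.27 to 0.67, adjusted p = 0.00122, edgeR), or 1.38-fold. Leaving out any 1 library gave 0.42 to 0.50 on the log2 scale, and the gene passed each time.

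*Tyrp1* (ENSMUSG00000005994, chromosome 4, 80834123 to 80851719, plus strand) encodes the tyrosinase-related protein that oxidises a late indole intermediate in the mouse. It stood at 201, 251, 234 and 213 CPM in Bbs8+/+ and at 227, 212, 217 and 228 CPM in Bbs8-/- libraries. All Bbs8-/- values fell inside the Bbs8+/+ range. Genotypes differed by a log2 fold change of -0.02 (SE 0.0977, 95% interval -0.21 to 0.17, adjusted p = 0.929), an interval that leaves out a rise as large as the estimate for *Tyr*. In the same libraries the counts of *Tyr* were 0.592 to 0.682 times those of *Tyrp1* in Bbs8+/+ and 0.804 to 0.964 times in Bbs8-/-, a ratio that does not depend on how libraries are scaled.

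*Dct* (ENSMUSG00000022129, chromosome 14, 118012790 to 118052244, minus strand) encodes dopachrome tautomerase, which acts between the other two enzymes. It was the most abundant of the 10 genes by far and lay above 99.9% of tested genes in mean level. The Bbs8+/+ libraries held 3878, 3604, 3505 and 3919 CPM and the Bbs8-/- libraries 3746, 3483, 3592 and 3441 CPM. The genotypes overlapped over most of their range. The log2 fold change was -0.06 (SE 0.0533, 95% interval -0.17 to 0.04, adjusted p = 0.531), the narrowest interval of the 10. *Tyr* counts were 0.0354 to 0.0412 times those of *Dct* in Bbs8+/+ and 0.0532 to 0.0584 times in Bbs8-/- libraries, again without overlap. The signs of *Tyrp1* and *Dct* turned to 0.06 and 0.03 when libraries were scaled by their size alone.

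Because *Dct* supplied 76.9% to 80.2% of the summed level of the 10 genes in Bbs8+/+ and 76.0% to 77.0% in Bbs8-/- libraries, the sum says little about the rest. It ran from 4546 to 4905 CPM in Bbs8+/+ and from 4525 to 4862 CPM in Bbs8-/- libraries. Within the sum, *Tyr* made up 2.83% to 3.17% in Bbs8+/+ and 4.05% to 4.50% in Bbs8-/-. *Pmel* made up 4.63% to 6.21% and then 3.29% to 3.81%. The total over the set was thus alike in range while its composition was not.

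The structural genes of the melanosome moved in opposite directions. *Pmel* (ENSMUSG00000025359, chromosome 10, 128704195 to 128720238, plus strand) encodes the protein whose fibrils form the inner scaffold of the early melanosome. Its level was 224, 266.7, 282 and 240 CPM in Bbs8+/+ and 160, 172, 159 and 173 CPM in Bbs8-/- libraries. The lowest Bbs8+/+ library was well above the highest Bbs8-/- library. The mean was 253 ± 26.1 CPM against 166 ± 7.43 CPM (SD), a log2 fold change of -0.61 (SE 0.100, 95% interval -0.81 to -0.41, adjusted p = 2.04e-05), or 0.655-fold. *Pmel* passed the test under each of the settings tried, and leaving out 1 library gave -0.66 to -0.56. The gene shares 105 exon bases with *Dgka* and 34 with *Cdk2* on the opposite strand, and the strand setting of the counting is not given in the sources used here. It is thus not known whether reads of the shared bases were counted or set aside as ambiguous. Ambiguous reads made up 0.244% to 0.296% of a library. *Dgka* itself was at 3.55 ± 0.995 CPM in Bbs8+/+ and 7.89 ± 3.63 CPM in Bbs8-/- (log2 fold change 1.14, adjusted p = 0.165) and *Cdk2* had 16.5 ± 8.10 and 28.2 ± 3.07 CPM (0.78, adjusted p = 0.0619).

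*Mlana* (ENSMUSG00000024806, chromosome 19, 29697824 to 29708634, plus strand) encodes the melanosomal protein MART-1, a known partner of Pmel in melanosome maturation. The Bbs8+/+ libraries held 69.7, 52.6, 57.6 and 44.2 CPM and the Bbs8-/- libraries 74.7, 75.6, 97.2 and 79.0 CPM. The genotypes did not overlap, but the highest Bbs8+/+ library came within a few CPM of the lowest Bbs8-/- library. The mean rose from 56.0 ± 10.7 to 81.6 ± 10.5 CPM (SD), a log2 fold change of 0.54 (SE 0.156, 95% interval 0.23 to 0.85, adjusted p = 0.0166). The call was lost without Bbs8+/+ replicate 2 (adjusted p = 0.0602), Bbs8+/+ replicate 4 (0.102) or Bbs8-/- replicate 3 (0.0905). Counts of *Mlana* were 0.184 to 0.311 times those of *Pmel* in Bbs8+/+ and 0.440 to 0.612 times in Bbs8-/- libraries. Since both genes passed with opposite signs and without overlap, this ratio adds no test of either.

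*Gpr143* (ENSMUSG00000025333, chromosome X, 152781921 to 152808646, plus strand) encodes a receptor of the melanosome membrane that controls the number and size of melanosomes and is mutated in ocular albinism. Levels of 14.9, 18.6, 10.2 and 20.1 CPM in Bbs8+/+ and 37.8, 25.1, 19.2 and 16.8 CPM in Bbs8-/- libraries rested on 25 to 54 and 48 to 92 counts. The genotypes overlapped, with Bbs8-/- replicates 3 and 4 inside the Bbs8+/+ range and replicate 1 well above it. The log2 fold change of 0.62 (SE 0.282, 95% interval 0.07 to 1.17) did not pass after adjustment (adjusted p = 0.165). The gene is X-linked, and the X-inactivation transcript *Xist* moved with genotype, at 60.1 ± 13.2 CPM in Bbs8+/+ and 207 ± 5.41 CPM in Bbs8-/- libraries (log2 fold change 1.78, adjusted p = 2.23e-13), while the summed Y-linked genes were at 146 ± 15.5 and 117 ± 13.5 CPM. The part of sex in the value for *Gpr143* was not tested.

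**Figure D2:**
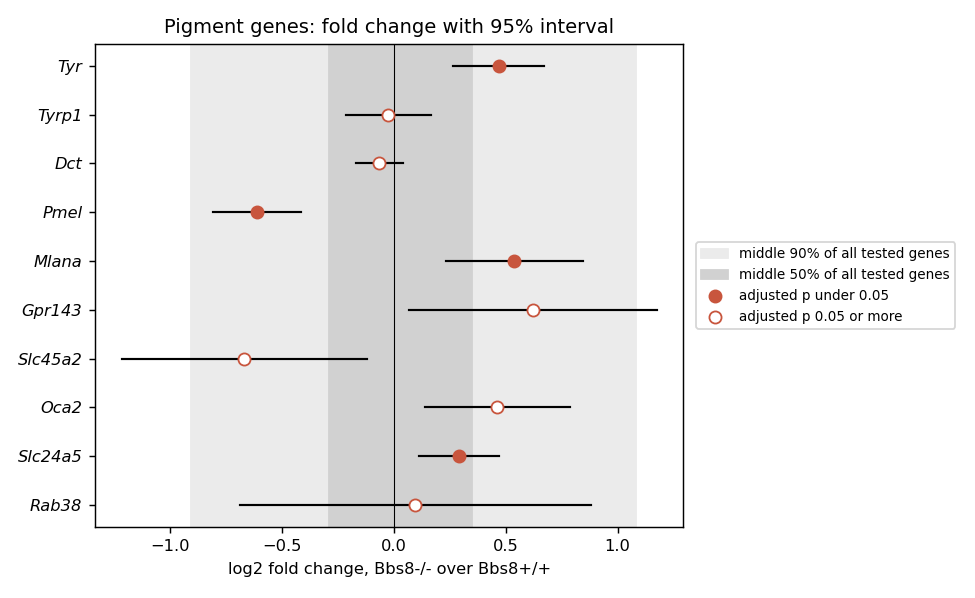
Log2 fold change (x axis, Bbs8-/- over Bbs8+/+) of each pigment gene with its 95% interval, with filled points for adjusted p under 0.05, over shaded bands of the middle 50% and middle 90% of all tested genes. All 10 estimates lie inside the wider band, from -0.67 for *Slc45a2* to 0.62 for *Gpr143*.

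Of the transporters, *Slc24a5* passed the test, and *Oca2* and *Slc45a2*, with differences of opposite sign, did not. *Slc24a5* (ENSMUSG00000035183, chromosome 2, 125068124 to 125088677, plus strand) encodes an exchanger of sodium and potassium for calcium in the membranes of the melanosome pathway. Its level was 243, 255, 231 and 243 CPM in Bbs8+/+ and 306, 296, 270 and 318 CPM in Bbs8-/- libraries. Each Bbs8-/- library lay above the Bbs8+/+ range. The mean rose from 243 ± 9.88 to 298 ± 20.6 CPM (SD), a log2 fold change of 0.29 (SE 0.0913, 95% interval 0.11 to 0.47, adjusted p = 0.0279), the smallest change among the 4 genes that passed. The call was lost in 5 of the 8 fits that left out 1 library (without Bbs8+/+ replicate 3 or 4 or Bbs8-/- replicate 1, 2 or 4, adjusted p 0.0570 to 0.102). The 3′ end of *Slc24a5* shares 921 exon bases with *Myef2* on the opposite strand, whose own level was 24.7 ± 4.88 CPM in Bbs8+/+ and 34.8 ± 7.86 CPM in Bbs8-/- (log2 fold change 0.49, adjusted p = 0.171). Without the strand setting it is not known whether reads of these shared bases were counted or set aside as ambiguous.

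*Oca2* (ENSMUSG00000030450, chromosome 7, 56239760 to 56536518, plus strand) encodes the anion channel that raises the pH of the melanosome. Bbs8+/+ libraries held 41.6, 58.6, 49.1 and 52.8 CPM and Bbs8-/- libraries 70.6, 54.8, 87.2 and 66.0 CPM. Only Bbs8-/- replicate 2 lay within the Bbs8+/+ range, below Bbs8+/+ replicate 2. Its fold change on the log2 scale was 0.46 (SE 0.166, 95% interval 0.14 to 0.79, adjusted p = 0.0618), close to that of *Tyr* in size but with a wider interval. Without Bbs8-/- replicate 2 the adjusted p was 0.0291 at 0.56.

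*Slc45a2* (ENSMUSG00000022243, chromosome 15, 11000721 to 11029233, plus strand) encodes a transporter that also keeps the melanosome from turning acidic. It was at 22.7, 26.1, 23.7 and 21.6 CPM in Bbs8+/+ and at 9.85, 11.1, 24.0 and 14.3 CPM in Bbs8-/- libraries, from 58 to 70 and from 24 to 60 counts. Bbs8-/- replicate 3 was at the Bbs8+/+ level and the other Bbs8-/- libraries were below it. Between genotypes it differed by -0.67 on the log2 scale (SE 0.280, 95% interval -1.21 to -0.12, adjusted p = 0.127) with all libraries and -0.99 (adjusted p = 0.0223) without that library. The counts of *Oca2* were 1.84 to 2.45 times those of *Slc45a2* in Bbs8+/+ and 3.63 to 7.17 times in Bbs8-/- libraries, with no overlap. Neither gene passed on its own, and a ratio of genes with differences of opposite sign adds no test of either. Counts of *Slc24a5* were 9.72 to 11.29 times those of *Slc45a2* in Bbs8+/+ and 11.25 to 31.08 times in Bbs8-/- libraries, with overlap. The share of all gene pairs whose ratios do not overlap was not computed.

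*Rab38* (ENSMUSG00000030559, chromosome 7, 88430273 to 88491572, plus strand) encodes the GTPase that directs tyrosinase and Tyrp1 to the melanosome. It was the least abundant of the 10, at 5.42, 6.34, 11.9 and 9.29 CPM in Bbs8+/+ and 11.1, 8.96, 8.80 and 6.29 CPM in Bbs8-/- libraries. With 16 to 29 counts per library the genotypes overlapped fully. The log2 fold change was 0.10 with a 95% interval from -0.69 to 0.88 (SE 0.399, adjusted p = 0.927), so a change of the size seen for the genes that passed was not detectable at this depth.

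The libraries did not order the 10 genes alike. Bbs8-/- replicate 1 was the highest of its genotype for *Tyr*, *Dct*, *Gpr143* and *Rab38* and the lowest for *Mlana* and *Slc45a2*. Bbs8-/- replicate 3 was the highest for *Mlana*, *Slc45a2* and *Oca2* and the lowest for *Pmel* and *Slc24a5*. Among the Bbs8+/+ libraries replicate 2 was the highest for *Tyr*, *Tyrp1*, *Slc45a2*, *Oca2* and *Slc24a5*. No library was the highest of its genotype for more than 5 of the 10 genes.

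The direction of several genes rested on what the libraries were scaled to. Scaling to the summed counts of 16 RPE markers lowered the median of all genes by 0.33 on the log2 scale, and under it *Tyr* was at 0.14 (adjusted p = 0.388), *Mlana* at 0.21 (0.382) and *Slc24a5* at -0.034 (0.856), so no pigment gene was called higher. Under the same scaling *Pmel* (-0.94), *Slc45a2* (-0.99), *Dct* (-0.39) and *Tyrp1* (-0.35) were called lower. *Ttr*, the carrier of thyroxine and retinol that the RPE secretes, had a mean of 20932 ± 540 CPM in Bbs8+/+ and 31748 ± 1397 CPM in Bbs8-/- libraries (log2 fold change 0.60, adjusted p = 3.35e-16) and thereby set most of that scale. With *Ttr* left out, a choice made after the data were seen, the remaining 15 markers summed to 18202 ± 450 CPM and 17370 ± 275 CPM (exact permutation test, two-sided, p = 0.0571). Scaled to these 15, *Tyr* was at 0.54, *Mlana* at 0.60, *Slc24a5* at 0.36 and *Oca2* at 0.53, all called higher, and *Pmel* at -0.54 was called lower. No rise relative to the sum of all 16 RPE markers passed the test. A change of scale moves all genes alike and leaves the order of their values as it was.

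**Figure D3:**
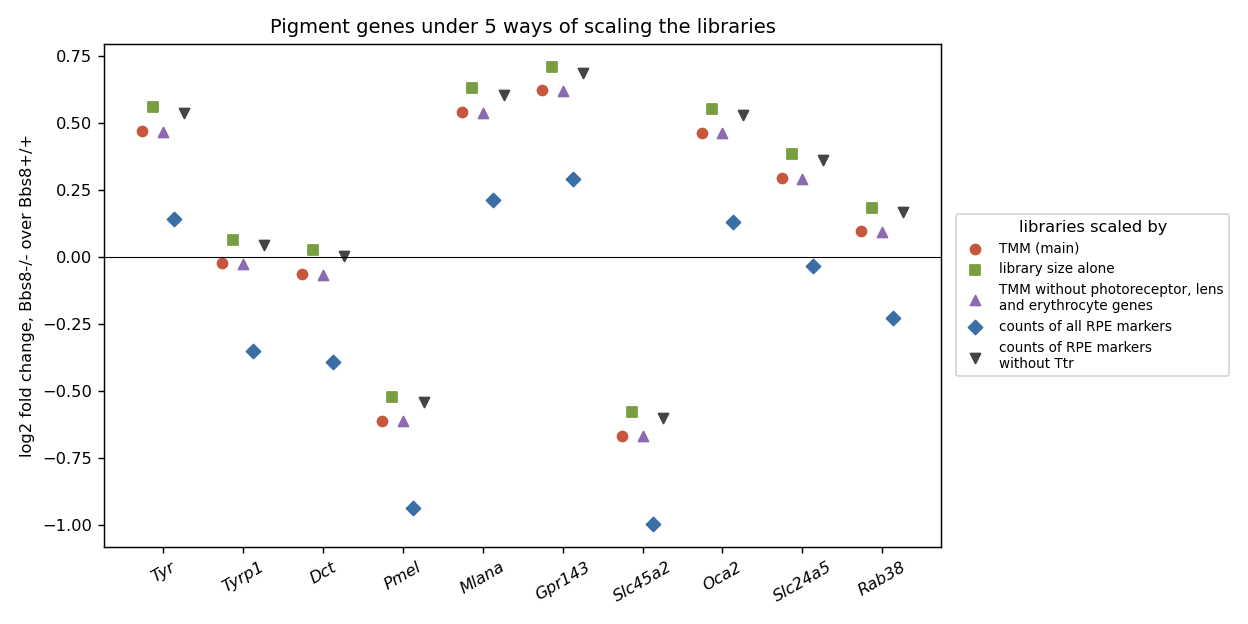
Log2 fold change (y axis, Bbs8-/- over Bbs8+/+) of each pigment gene under 5 ways of scaling the libraries (symbols). Scaling to all 16 RPE markers moves every gene down, *Slc24a5* from 0.29 to -0.034, and the scaling to the 15 markers without *Ttr* lies near TMM and library size.

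Melanocytes of the choroid also express these genes and can come along when RPE is isolated. Of 9 markers of melanocytes and other neural crest cells, 6 were tested. In Bbs8-/- libraries 0 were higher and 1 was lower, beside 5.46% and 6.80% of all tested genes. A list this short cannot be told apart from those shares. Their summed level was 167 to 219 CPM in Bbs8+/+ and 191 to 206 CPM in Bbs8-/- libraries (exact permutation test, two-sided, p = 0.571), and the part of melanocytes in the values of the pigment genes was not tested. *Sox10*, the factor that specifies melanocytes and glia from the neural crest, made up most of the sum at 140 ± 22.9 and 158 ± 11.0 CPM (log2 fold change 0.17, adjusted p = 0.405). *Kit*, the receptor that melanocytes need to survive, was at 6.41 ± 1.33 and 11.9 ± 5.45 CPM (0.88, adjusted p = 0.164), *Ednrb* at 3.79 ± 1.84 and 4.66 ± 2.66 CPM and *Mc1r* at 8.47 ± 2.03 and 6.81 ± 4.27 CPM, each with overlap. *S100b*, a calcium-binding protein of glia and melanocytes, fell from 25.4 ± 3.67 to 12.1 ± 3.16 CPM (-1.06, adjusted p = 0.00599). *Pax3* had 0 to 12 counts in a library and *Erbb3* 0 to 3, and neither was tested.

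Of the RPE's own markers, 16 were tested, of which 5 were higher and 4 lower, beside 5.46% and 6.80% of all tested genes. *Rpe65*, the isomerase of the visual cycle, fell from 4640 ± 211 to 3916 ± 38.1 CPM (log2 fold change -0.24, adjusted p = 0.000467), and *Rgr* was at 4715 ± 175 and 4687 ± 129 CPM (-0.01, adjusted p = 0.950). The levels of *Dct* were thus of the same order as those of the main visual cycle genes in both genotypes. Markers of photoreceptors summed to 71480 ± 1752 CPM in Bbs8+/+ and 29931 ± 365 CPM in Bbs8-/- libraries, lens markers to 3660 ± 83.7 and 499.6 ± 20.9 CPM and erythrocyte markers to 5469 ± 225 and 2196 ± 108 CPM, and they differed between genotypes in the same libraries in which *Tyr* and *Slc24a5* were higher. Of the 28 photoreceptor markers 19 were lower and 5 higher in Bbs8-/- libraries, beside 6.80% and 5.46% of all tested genes. The 5 are genes of cones. Their log2 fold changes were 0.76 for *Opn1sw*, 0.84 for *Opn1mw*, 0.70 for *Gnat2*, 1.21 for *Pde6h* and 1.14 for *Gngt2*. Other cone genes of the list did not pass in edgeR, namely *Pde6c* (0.65, adjusted p = 0.117), *Cngb3* (0.44, adjusted p = 0.666) and *Arr3* (-0.13, adjusted p = 0.808). The part of the other cell types in the values of the pigment genes was not tested.

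**Figure D4:**
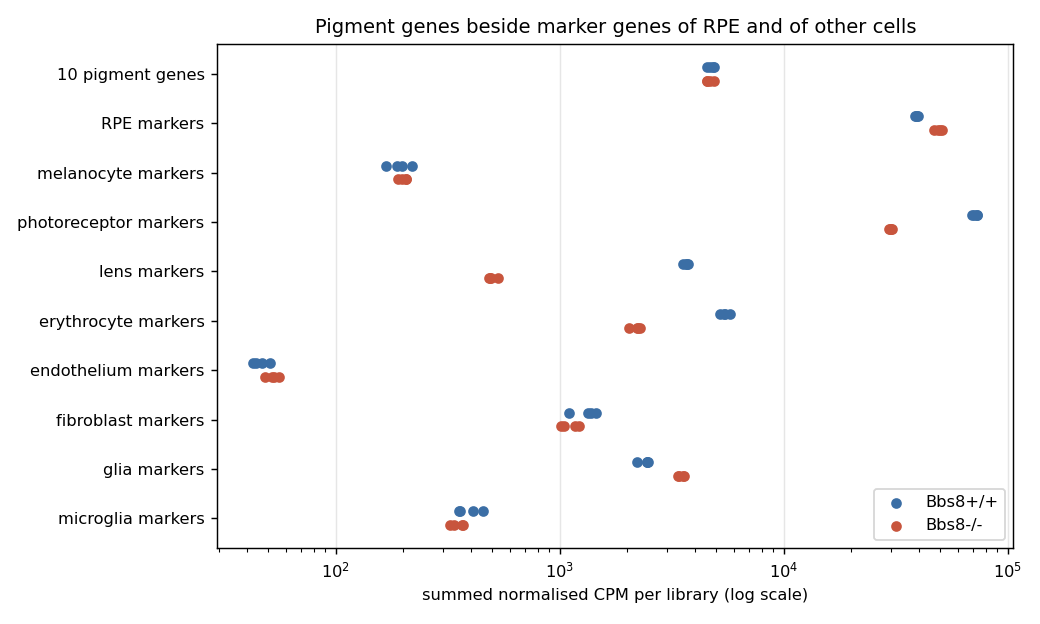
Summed normalised CPM (x axis, log scale) of the 10 pigment genes and of each marker list, 1 point per library. The pigment sum and the melanocyte sum overlap between genotypes, while photoreceptor, lens and erythrocyte sums are lower and RPE and glia sums higher in all Bbs8-/- libraries.

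Beyond the 10, a list of 81 genes for making, moving and regulating melanosomes was taken by function, again with earlier results known. Of these, 80 were matched to the annotation and 71 tested. In the knockout 9 of the 71 were higher and 3 were lower, beside 5.46% and 6.80% of all tested genes, and the median of their log2 fold changes was 0.17.

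Among 10 tested enzymes and matrix proteins outside the core set, 2 were higher and 1 lower, beside 5.46% and 6.80% of all tested genes. *Gpnmb*, a melanosomal glycoprotein related to Pmel, was at 325, 251, 236 and 300 CPM in Bbs8+/+ and 422, 405, 399 and 413 CPM in Bbs8-/- libraries (log2 fold change 0.56, SE 0.0939, adjusted p = 2.87e-05). It rose without overlap, opposite in sign to its relative *Pmel*. *Cd63*, a tetraspanin that sorts Pmel into the vesicles of the early melanosome, rose from 1232 ± 76.5 to 1710 ± 54.4 CPM (0.47, adjusted p = 4.99e-07). *Ddt*, a tautomerase that acts on D-dopachrome, fell from 126 ± 14.0 to 84.2 ± 8.05 CPM (-0.59, adjusted p = 0.00109), and it shares 232 exon bases with *Gm20441* on the same strand. Its relative *Mif* was at 802 ± 48.4 and 701 ± 35.2 CPM (-0.20, adjusted p = 0.0785).

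Of 8 tested ion transport genes, 1 passed, near the 12.3% of all tested genes that passed in either direction. *Atp7a*, the pump that loads copper into tyrosinase, was at 65.0, 61.5, 47.0 and 58.7 CPM in Bbs8+/+ and 154, 122, 158 and 119 CPM in Bbs8-/- libraries. Every Bbs8-/- library was above every Bbs8+/+ library by a wide margin. The log2 fold change was 1.25 (SE 0.139, 95% interval 0.97 to 1.52, adjusted p = 8.13e-09), or 2.37-fold. *Atp7a* is X-linked, as is *Gpr143*, and the part of sex in its value was not tested. *Atp6ap1*, an accessory subunit of the proton pump and the most abundant of the group, was at 340 ± 54.4 and 304 ± 26.1 CPM (-0.16, adjusted p = 0.346).

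Of 27 tested genes for melanosome biogenesis, 1 was higher and 1 was lower, no more than the 5.46% and 6.80% of all tested genes. The median log2 fold change of the group was 0.07. *Hps4*, a subunit of the BLOC-3 complex, was at 31.2 ± 1.97 and 47.2 ± 10.8 CPM (log2 fold change 0.59, adjusted p = 0.0418), with Bbs8-/- replicate 4 inside the Bbs8+/+ range. *Vps33a*, a subunit of the complexes that tether lysosome-related vesicles, fell from 38.1 ± 4.40 to 22.9 ± 8.96 CPM (-0.74, adjusted p = 0.0401). The most abundant, *Ap3d1*, a subunit of the AP-3 adaptor that sorts melanosome cargo, was at 222 ± 16.2 and 205 ± 9.50 CPM (-0.11, adjusted p = 0.554). The call of *Hps4* was lost in 6 and that of *Vps33a* in 5 of the 8 fits that left out 1 library.

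Melanosome movement gave 2 higher and 0 lower of 11 tested genes, beside 5.46% and 6.80% of all tested genes. *Sytl2*, an effector that links Rab27a on the melanosome to the plasma membrane, rose from 50.7 ± 4.96 to 91.2 ± 10.5 CPM (log2 fold change 0.85, SE 0.148, adjusted p = 5.15e-05), without overlap. *Kif5b*, the heavy chain of a kinesin motor, was at 237 ± 21.9 and 293 ± 26.9 CPM (0.30, adjusted p = 0.0321) with overlap, and its call was lost in 6 of the 8 fits without 1 library. Under the scaling to all RPE markers *Kif5b* was at -0.026.

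Of 15 tested regulators of pigment genes, 3 were higher and 1 lower, beside 5.46% and 6.80% of all tested genes. *Otx2*, the homeobox factor that maintains RPE identity, was at 938, 867, 974 and 863 CPM in Bbs8+/+ and 1217, 1117, 1123 and 1042 CPM in Bbs8-/- libraries (log2 fold change 0.30, SE 0.0701, adjusted p = 0.00201). It rose without overlap, and its part in the values of the pigment genes was not tested. *Sox9*, which acts with Otx2 on RPE genes, rose from 480 ± 25.6 to 599 ± 56.2 CPM (0.32, adjusted p = 0.00577), and *Pax6*, the eye field factor that is known to fall as the RPE matures, rose from 10.2 ± 0.740 to 21.4 ± 2.34 CPM (1.07, adjusted p = 0.00844). *Otx2* and *Sox9* were at -0.023 and -0.0056 when scaled to all RPE markers. The part of other cell types in the values of these regulators was not tested. *Creb1*, a factor that answers cyclic AMP, fell from 107 ± 12.9 to 80.3 ± 13.2 CPM (-0.41, adjusted p = 0.0485), with overlap, and lost its call in 6 of the 8 fits without 1 library. *Mitf*, the factor known to drive most of the core set and named here after its values were seen, was at 111, 102, 104 and 111 CPM in Bbs8+/+ and 101, 143, 131 and 150 CPM in Bbs8-/- libraries, of which Bbs8-/- replicate 1 was the lowest of all 8 (0.30, SE 0.125, adjusted p = 0.132).

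**Figure D5:**
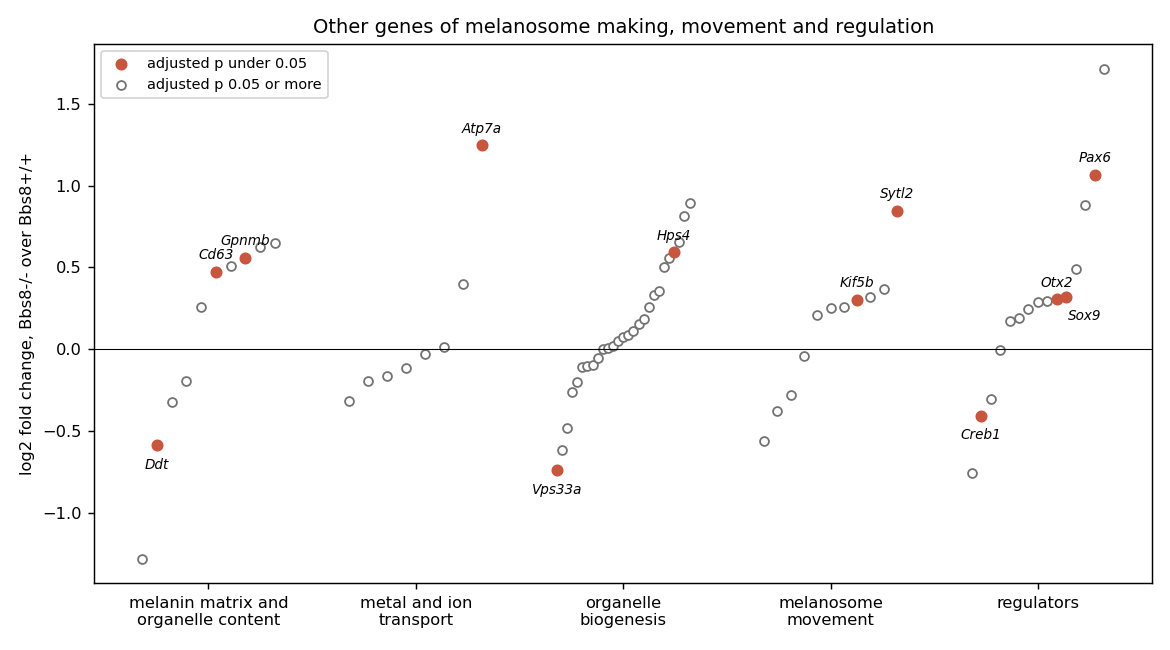
Log2 fold change (y axis, Bbs8-/- over Bbs8+/+) of 71 further pigment cell genes in 5 groups by function, with filled, named points for adjusted p under 0.05. *Atp7a* at 1.25 is the highest filled point and *Vps33a* at -0.74 the lowest.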

How the data were processed

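RPE was isolated at P29, and 8 QuantSeq 3′ libraries (30 ng of RNA, single-end reads of 100 bp) were sequenced. The authors trimmed the reads with BBDuk, aligned them with STAR to mm10 and counted unique reads per gene with htseq-count, and they deposited these counts without normalisation. The strand setting of the counting is not given in the sources used here. Summary lines that name no gene were left out (reads that mapped to more than 1 place, 32.8% to 34.5% of a library, and reads on no gene, 17.0% to 18.4% in Bbs8+/+ and 19.8% to 20.6% in Bbs8-/-). Libraries were grouped from their labels. Symbols and coordinates came from GENCODE M21 (GRCm38, the build of mm10), which named 30934 of the 31053 identifiers.

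The test was run in edgeR 4.0.16 under R 4.3.3. It covered the 12889 genes that reached 1 CPM in 4 or more libraries, with TMM scaling, the two-sided quasi-likelihood F test of edgeR for genotype, p-values adjusted over all of these genes by Benjamini-Hochberg, and a threshold of 0.05. The fit was tested on simulated data. Each standard error is the estimate divided by the root of its F, and p-values measure the spread between these libraries, which differed by more than sampling noise (chi-square per gene 2.87 to 7.51 for pairs of 1 genotype). Floors cover counting error only. Summed marker levels were compared with exact permutation tests, adjusted over 9 lists.

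The 10 genes and the other lists were chosen with earlier results of these data known. Named were all 10 genes, *Ttc8*, from each wider list up to 5 genes past the threshold with the smallest adjusted p and the most abundant gene even if it did not pass, the melanocyte markers and the most abundant of the other markers. Values of some genes that this rule covers are not reported here. *Mitf*, *Mif*, *Best1*, the cone genes and the overlapping neighbours were added after their values were seen, as was the GGATTA search. Alternatives were DESeq2 1.42.0, edgeR's likelihood ratio test, other scalings and filters, the replicate number as a block and each library left out in turn. The P11 libraries, proteome and imaging were not analysed here.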

Additional observations from a re-analysis of the deposited data

Results flagged for a closer look

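In 64 groups of 4 libraries tested for a library far from the others, 2 stood out, and chance gives about 1 in 20. *Sox9* in Bbs8+/+ replicate 3 was at 442 CPM, below the 489 to 498 CPM of the other Bbs8+/+ libraries. The summed glia markers in Bbs8+/+ replicate 1 were at 2213 CPM, below the 2457 to 2479 CPM of the others. Both groups stayed below all Bbs8-/- libraries.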

How the results depend on the processing

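The counts of calls in either direction stayed within 1.5 times, for the 10 pigment genes, the wider list and all genes, under edgeR's likelihood ratio test, TMM without photoreceptor, lens and erythrocyte genes, no filter and edgeR's filterByExpr. Scaled to RPE marker counts, 0 of the 10 pigment genes were called higher and 4 lower, 2 of the wider list higher and 14 lower, and 245 of all genes higher and 2895 lower, and log2 fold changes reversed for *Slc24a5* (-0.034), *Kif5b* (-0.026), *Otx2* (-0.023) and *Sox9* (-0.0056). That scaling shifted the median of all genes by -0.33, and 7.80% of all calls were higher, against 44.5% under TMM, 60.5% under library size alone (median shift 0.09) and 57.4% under RPE markers without *Ttr* (0.07), which was chosen after seeing the data. The number of wider genes called lower was 1 under DESeq2, library size alone and RPE markers without *Ttr*. Leaving out 1 library gave 1 to 3 pigment genes called higher, with 1 without Bbs8+/+ replicate 4, and 1 to 2 called lower, with 2 without Bbs8-/- replicate 3. For the wider list it gave 1 to 3 called lower, with 1 without Bbs8+/+ replicate 2 or 4 or Bbs8-/- replicate 3 or 4. *Rab38* was at -0.23 under RPE markers. *Oca2* was also called under library size alone (adjusted p = 0.0227), filterByExpr (0.0487) and RPE markers without *Ttr* (0.0266). The cause of these differences was not tested.

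Replicate numbers did not pair the libraries, since deviations of same-numbered libraries correlated at -0.06 to 0.01 and not every library correlated best with its own number. With the replicate block 3 pigment genes were higher and 1 lower, 8 of the wider list were higher and 3 lower, and 650 and 827 of all genes, and *Hps4* lost its call (adjusted p = 0.0686).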
